A study of Mus musculus with 13 samples.

Results

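The genes described here are 10 genes of liver iron handling: the hormone gene Hamp, the receptor and regulator genes Tfr2, Hfe and Bmp6, the BMP target gene Id1, the transferrin gene Trf, the uptake receptor gene Tfrc, the ferritin genes Fth1 and Ftl1, and the exporter gene Slc40a1. They were found by symbol among the 11779 genes listed for the liver, and all 10 of them were listed once. The study depleted LL35, a long non-coding RNA also known as Falcor, in mouse liver and in AML12 cells, a mouse hepatocyte line. The liver libraries came from Balb/c mice on day 5 after injection of antisense oligonucleotides (ASOs) carrying GalNAc, a sugar that hepatocytes take up. One group of 3 mice received a mix of ASOs against LL35, 5 by the labels, and the other group of 3 received a single ASO against firefly luciferase (Luc), so every mouse had been given an ASO, and no untreated liver was sequenced. The list of ASOs for mice that accompanies the study holds fewer against LL35 than the labels count. The labels give the dose of the LL35 mix as 150 mg/kg for each ASO, while the study's methods describe this dose as that of the whole mix, and the age of the mice is not given in the sources used here. The 7 AML12 samples were not analysed here.

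The value used for each gene is the authors' mean normalized count, that is, the read count scaled for library size and averaged over the libraries of both liver groups. It carries no value for a single mouse, so no spread between mice, no difference between the Luc and LL35 groups and no test could be computed from it, and the levels below are a description of liver that had received ASOs. In whole liver, a level also reflects how many cells of each type were present, and fewer cells of a type cannot be told apart from less RNA per cell. The mean normalized counts of the listed genes had a sum of 11299288, with a median of 235 and a lowest value of 15.6. The reads per mouse are unknown.

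Iron balance in the body is set by hepcidin, the peptide encoded by Hamp, which hepatocytes secrete and which binds the exporter ferroportin, the product of Slc40a1, so that less iron enters the blood. BMP6, made by liver endothelial cells, signals through BMP receptors, hemojuvelin and SMAD proteins to the Hamp and Id1 genes, and HFE and transferrin receptor 2 take part in sensing the iron carried by transferrin. Inside the cell, iron regulatory proteins bind a stem-loop, the iron responsive element (IRE). Bound before the coding sequence, as in the ferritin mRNAs, they hinder translation, and bound after it, as in the Tfrc mRNA, they protect the mRNA from decay.

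The IREs of the members are shown because this element is how the iron content of a cell reaches the mRNAs for storage, export and uptake. The GENCODE M21 transcripts (GRCm38, the C57BL/6J sequence, not that of Balb/c) were searched on the sense strand for the letters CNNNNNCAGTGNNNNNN, where the 5 bases on each side of the loop CAGTGN had to pair, G with T allowed, and at least 3 of the next 5 positions had to pair as well. Each element is given from 5′ to 3′ with the loop in capitals.
Fth1, 5′ UTR: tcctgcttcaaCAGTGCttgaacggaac
Ftl1, 5′ UTR: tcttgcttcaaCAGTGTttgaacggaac
Slc40a1, 5′ UTR: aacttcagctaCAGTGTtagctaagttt
Tfrc, 3′ UTR, element 1: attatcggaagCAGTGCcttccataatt
Tfrc, 3′ UTR, element 2: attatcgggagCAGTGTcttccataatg
Tfrc, 3′ UTR, element 3: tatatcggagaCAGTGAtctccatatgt
Tfrc, 3′ UTR, element 4: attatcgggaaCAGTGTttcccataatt

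Of the 10 members, 4 held such an element, 3 of them in the 5′ UTR and Tfrc in the 3′ UTR. Among the 11363 listed genes with an annotated UTR, 36 held one, or 0.317%, and 7 held one in the 5′ UTR. The bare letters CAGTG stood in a UTR of 84.4% of these genes and of 8 members. The further C of the letters searched and the paired stem together narrow the search, and the part of each was not counted. The elements of Fth1 and Ftl1 were alike at 26 of 28 positions. They differed by C3T and C17T, with the base of Fth1 first and positions counted from 1 at the 5′ end of the printed element, and the second of these is the last base of the loop. The 4 Tfrc elements differed from each other at 3 to 11 positions. Slc40a1 and Tfrc elements paired at all 5 lower positions, and the ferritin elements at 4. The Fth1 element lies at chr19:9982733-9982760 on the plus strand and starts 137 bases before the start codon. The Ftl1 element lies at chr7:45459779-45459806 on the minus strand and starts 175 bases before its start codon. The Slc40a1 element lies at chr1:45925465-45925492 on the minus strand and starts 229 bases before the start codon. The Tfrc elements lie on the plus strand of chromosome 16, the first at chr16:32631220-32631247 and the last at chr16:32631711-32631738. A match is a description of the letters, and no binding was measured. The mRNAs of all 4 members with the element, those for storage, export and uptake, were known to carry it before the search. Their number among the members is therefore a description and not a test. Elements that depart from these letters or from full pairing beside the loop are missed, so the counts are not a full inventory.

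The tissue label was checked against marker genes. All 7 hepatocyte markers were listed, with levels from 2092 to 519843 mean normalized counts per kb of merged exons, the highest being that of Alb (albumin). All 7 Kupffer cell markers were listed, from 55.4 to 791 per kb, as were all 7 sinusoidal endothelial markers, from 41.4 to 289 per kb. The 5 stellate cell markers lay between 13.8 and 265 per kb. Of 4 cholangiocyte markers only Sox9 was among the listed genes, at 9.94 per kb. Of 5 erythroid markers 3 were listed, from 31.7 to 389 per kb, the highest being that of the globin gene Hba-a1.

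Levels are compared between genes per kb of exon, because a longer mRNA gives more reads. On this scale, 9 of the 10 members lay above the median listed gene, which stood at 51.5 per kb, and 5 lay in the top 5% of listed genes. With a minimum mean normalized count of 50, or with the longest protein-coding transcript as length, 8 of the 10 lay above the median, since Hfe then fell below it. The members spanned from 28.0 per kb for Bmp6 to 50836 per kb for Trf. Together they made up 1.80% of the summed mean normalized counts, of which Trf alone gave 1.49% and the other members 0.309%.

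**Figure D1:**
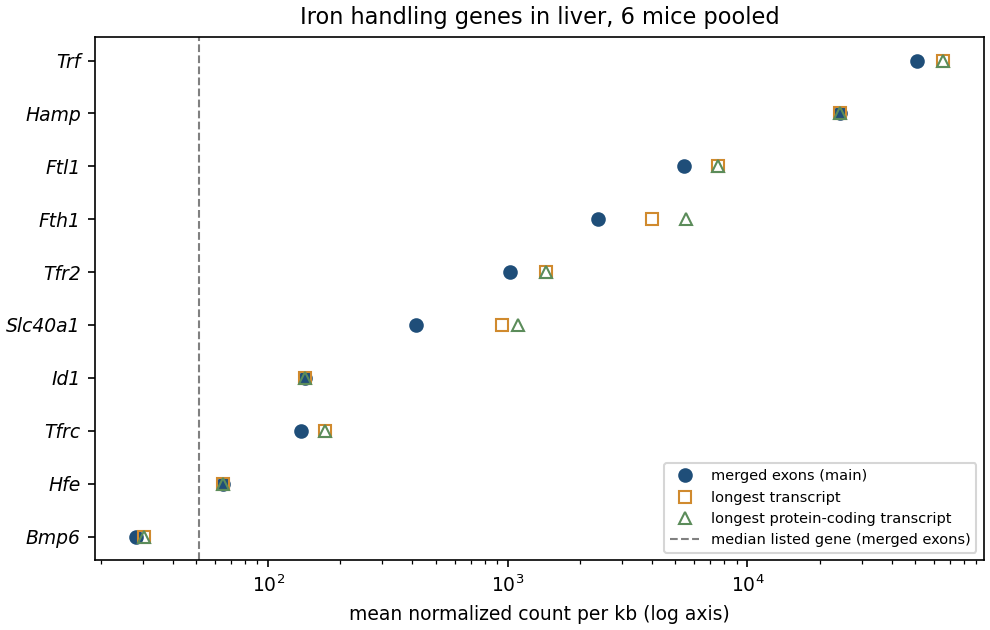
Mean normalized count per kb (log axis) of each iron handling gene, as the authors' mean over the liver libraries, with no error because single mice are not resolved. Filled circles use merged exons, squares the longest transcript and triangles the longest protein-coding transcript. Trf and Hamp stand highest, and Bmp6 alone lies below the median listed gene per kb of merged exons (dashed line).

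Trf, which encodes the iron carrier transferrin of the blood, was the most abundant member. Its mean normalized count was 168777, the 3rd highest of the listed genes, and per kb it ranked 4th. Albumin mRNA was 10.2 times as high per kb. Transferrin and albumin are both secreted into the blood by hepatocytes.

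Hamp followed with a mean normalized count of 9941. Its mRNA is short, with 410 bases of exon, so its level per kb was 24245, the 16th highest of the genes with a length. By count alone it ranked 114th. The level per kb was 471 times that of the median listed gene. Hamp2, a neighbouring paralog of Hamp, averaged 180 normalized counts, or 309 per kb, and Hamp was 78.4 times as high per kb. Per kb of the longest protein-coding transcript Hamp was 58.8 times as high, and by count 55.1 times.

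The ferritin genes came next. Ftl1, the light chain, was at a mean normalized count of 7282 and at 5434 per kb. Fth1, the heavy chain that oxidizes iron, was at 8239 and at 2375 per kb. The order of the pair depended on length. Fth1 was 1.13 times as high by count, while Ftl1 was 2.29 times as high per kb of merged exons and 1.36 times as high per kb of the longest protein-coding transcript. The merged exons of Fth1 came to 3469 bases, against 1494 bases in its longest protein-coding transcript.

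Of the receptor genes, Tfr2 was the more abundant. Tfr2, which hepatocytes use to sense transferrin, averaged 4435 normalized counts, or 1023 per kb. Tfrc, the receptor by which most cells take up transferrin, averaged 847 normalized counts, or 137 per kb. Tfr2 was thus 7.47 times as high as Tfrc per kb, and 5.24 times as high by count. The ligand gene Trf was 371 times as high as Tfrc per kb.

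Slc40a1, the exporter gene, had a mean normalized count of 3720. Its level was 413 per kb of merged exons and 1104 per kb of the longest protein-coding transcript, since its merged exons came to 9000 bases against 3370. Ferroportin is made by both hepatocytes and Kupffer cells. The most abundant Kupffer cell marker, Clec4f, stood at 791 per kb, so the order of Slc40a1 and Clec4f turned with the length used. The share of Slc40a1 RNA that came from each cell type was not tested.

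The regulator genes Hfe and Bmp6 and the BMP target gene Id1 were far less abundant than Hamp, both by count and per kb. By count, the regulator gene Tfr2, at 4435, lay nearer to Hamp, at 9941. Hfe, whose loss causes hereditary iron overload, averaged 232 normalized counts, or 64.9 per kb, close to the median listed gene at 1.26 times its level. Per kb, 56.5% of listed genes lay below Hfe, against 48.7% with the minimum of 50 and 44.6% with the longest protein-coding transcript. Bmp6 averaged 109 normalized counts, or 28.0 per kb, and 32.5% of listed genes lay below it. Id1, which BMP signals induce and whose product blocks helix-loop-helix factors, averaged 165 normalized counts, or 142 per kb. By count, 40.8% of listed genes lay below Id1, and per kb 77.2% did, because its exons come to 1160 bases.

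The order per kb was Trf, Hamp, Ftl1, Fth1, Tfr2, Slc40a1, Id1, Tfrc, Hfe and Bmp6. Neighbours in this order were 2.10 to 4.46 times apart, except Id1 and Tfrc, which were 1.04 times apart. With the longest protein-coding transcript, Tfrc stood above Id1 by 1.22 times and Tfr2 above Slc40a1 by 1.31 times. Whether neighbours differ beyond the spread between mice cannot be said, as that spread is unknown.

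**Figure D2:**
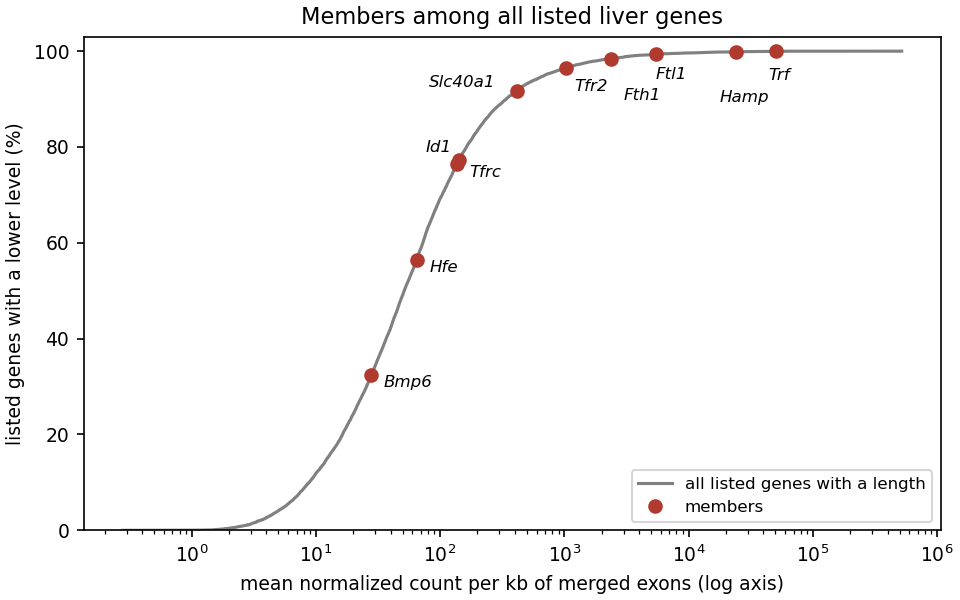
Share of listed genes with a lower level (%) against the mean normalized count per kb of merged exons (log axis). The line is all listed genes with a length and the points are the members, from Bmp6 at 32.5% up to Trf in 4th place from the top, with Id1 and Tfrc nearly on the same point.

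Other genes of the pathway were taken from 7 lists by role, which hold 61 genes with the members. Of these, 56 were listed and 41 lay above the median listed gene per kb. Not among the listed genes were Erfe, Id4, Cybrd1, Ftmt and Hephl1.

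In the hepcidin axis, 19 of 20 genes were listed and 15 lay above the median listed gene. After Hamp, the highest per kb of merged exons were Tmprss6, the protease that cleaves hemojuvelin, at 1349, and Fgl1, a secreted protein that binds BMPs, at 1345. This order depended on length. Per kb of the longest protein-coding transcript, Fgl1 stood at 5325, Furin at 1600, Tfr2 at 1444 and Tmprss6 at 1420. Bmp6 was the lowest. Hjv, the gene of hemojuvelin, stood at 207 per kb, 3.19 times Hfe, and Bmp2, the other endothelial BMP of this pathway, at 119 per kb, 4.23 times Bmp6. Among the sinusoidal endothelial markers, Stab2 stood at 248 per kb.

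Of 8 BMP and SMAD target genes, 7 were listed and 5 lay above the median listed gene. Id2 stood at 406 per kb, Id3 at 189 per kb, followed by Id1. Bambi, a decoy receptor, was the lowest at 8.04 per kb.

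Among the genes of transport and uptake, 10 of 11 were listed and 6 lay above the median listed gene. After Trf and Tfr2 came Steap4, a metalloreductase, at 791 per kb. Slc39a14, which carries iron not bound to transferrin into hepatocytes, stood at 652 per kb. With the longest protein-coding transcript as length, Slc39a14 stood at 1396 per kb, above Steap4, which stayed at 791 per kb. Scara5, a ferritin receptor, was the lowest at 3.37 per kb.

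All 5 listed genes of iron storage lay above the median listed gene. The iron chaperone gene Pcbp1 stood at 804 per kb, below both ferritins. Ncoa4, which delivers ferritin to lysosomes, was the lowest at 109 per kb, and Fth1 was 21.7 times as high.

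Of the export genes, Cp, the plasma ferroxidase ceruloplasmin, stood at 2008 per kb, above Slc40a1, and its membrane-bound relative Heph at 3.11 per kb. In the list of sensors, Aco1, the gene of iron regulatory protein IRP1, stood at 592 per kb and Ireb2, that of IRP2, at 183 per kb. Fbxl5, which marks IRP2 for degradation, stood at 46.9 per kb. The 10 genes of mitochondrial iron use were all listed, and 7 lay above the median listed gene. Alas1, the first enzyme of heme synthesis, stood at 2396 per kb. Glrx5, a glutaredoxin of iron-sulfur cluster assembly, stood at 144 per kb.

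**Figure D3:**
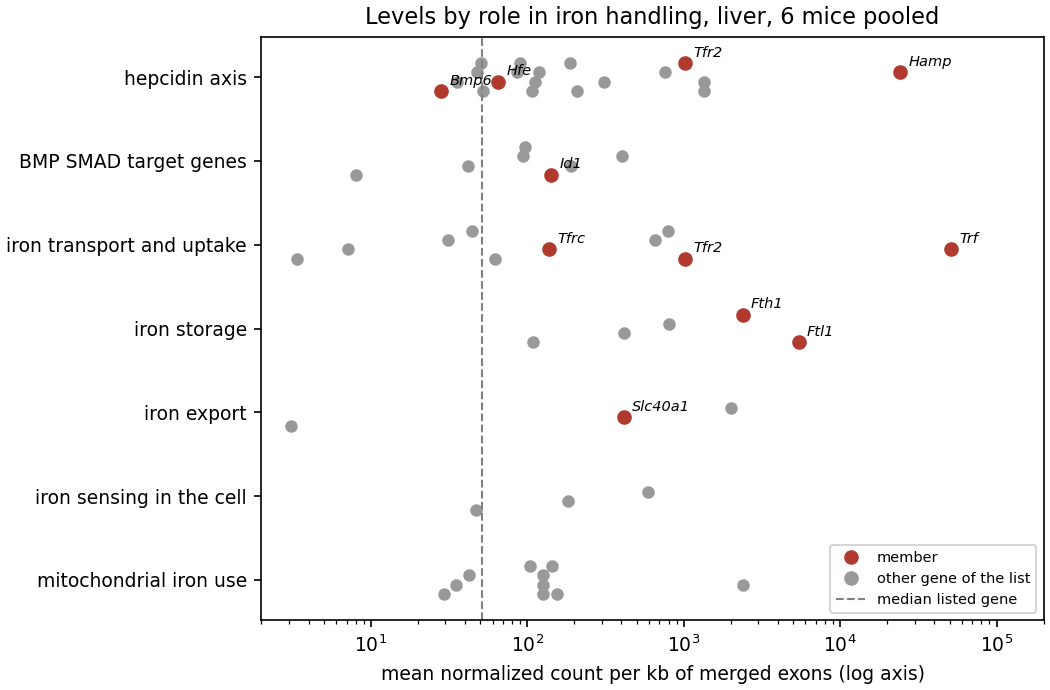
Mean normalized count per kb of merged exons (log axis) of each listed gene in the 7 lists by role, pooled over the liver libraries. Red points are members, grey points the other genes, and the dashed line is the median listed gene at 51.5 per kb. All genes of iron storage lie to the right of the line.

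How safely a read can be given to a gene differed between members. The gene counting built into STAR, which the authors used, takes a read only where it maps to a single place and overlaps a single gene. The longest protein-coding transcript of each member was cut into windows of 50 bases, and the share that also occurs in a transcript of another annotated gene was counted on both strands. For Tfr2, Tfrc, Slc40a1 and Id1, 0% of windows were shared. For Ftl1, 90.6% were shared, with 17 other genes, 8 of them annotated as pseudogenes, and 86 of 919 windows were found in Ftl1 alone. The pseudogene Ftl1-ps1 held 675 of the windows. At the Ftl1 locus itself, Gm10252 overlaps 355 bases of the exons on the opposite strand and Gm22133 109 bases on the same strand. How many shared windows fall in these overlaps was not counted. No row of a ferritin pseudogene named for Fth or Ftl was among the listed genes. For Fth1, 4.01% of windows were shared.

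For Trf, 79.8% of windows were shared with a single gene model, Gm20425, which overlaps 63.5% of the Trf exons on the same strand. Gm20425 was not among the listed genes, and whether the authors' annotation held it is not given in the sources used here. For Hamp, 16.6% of windows were shared with Hamp2. Of the Hamp2 windows, 26.8% were shared, with Hamp and Gm44662. Bmp6 shared 4.94% of windows with Txndc5, whose exons overlap 224 bases of Bmp6 on the opposite strand, and 3.32% of the Hfe windows were shared, with 48 genes. Divided by the windows found in that gene alone, the mean normalized count per kb was 330935 for Trf, 84676 for Ftl1 and 33025 for Hamp. On this scale Ftl1 stood above Hamp. The scale assumes that no read from a shared window was counted, which cannot be checked without the authors' annotation and strand setting.

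**Figure D4:**
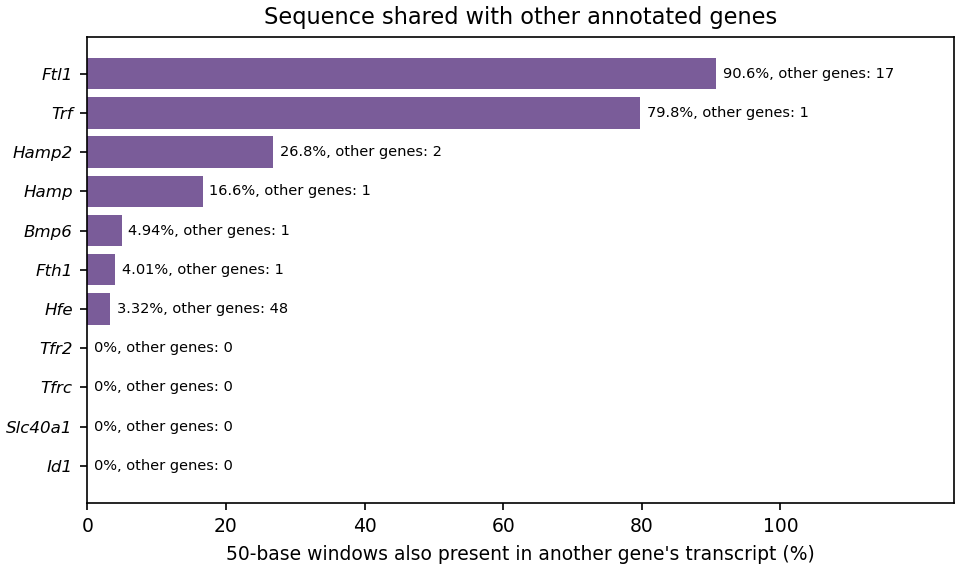
Share (%) of the 50-base windows of each gene's longest protein-coding transcript that also occur in a transcript of another annotated gene, with the number of such genes beside the bar. Ftl1 at 90.6% and Trf at 79.8% stand apart, and 4 members share none.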

How the data were processed

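Liver RNA was sequenced after ribosomal RNA depletion with a directional kit. According to the submitters' processing notes and the methods, the authors aligned the reads with STAR 2.5.3a, counted them on genes of an Ensembl annotation and compared the groups with DESeq2 after RLE normalization. The genome build and the strand setting are not given in the sources used here. The authors' deposited table holds for each gene a mean normalized count, a signal averaged over both liver groups. Its other 5 numeric columns hold the authors' own fold changes, their errors, the test statistic and p-values, and were not used. The reads per mouse are unknown, so no depth, interval or detection limit is given.

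Levels were divided by merged exon lengths from GENCODE M21 (GRCm38), found by Ensembl identifier for 11754 of 11779 genes, and percentiles were taken over these. The alternatives were the longest transcript, no length, protein-coding genes alone and a minimum mean normalized count of 50. The longest protein-coding transcript, the windows of 50 bases and the stem settings were chosen after the data were seen. No test was run, as no replicate values were used. The members and gene lists were chosen with earlier results of these data known. Named genes were all members, and in each list the 3 highest and the lowest per kb, and those not listed, except that some genes of mitochondrial iron use are not reported here. Slc39a14, Hjv, Bmp2, Furin, Hamp2, Clec4f, Stab2 and Hba-a1 were named after their values were seen. The IRE search was tested on simulated sequence. The software was pandas 2.3.3, numpy 2.4.6, scipy 1.17.1 and matplotlib 3.10.9, run in Python 3.11.15.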

Additional observations from a re-analysis of the deposited data

How the results depend on the processing

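The median level of the 10 members was 718 per kb of merged exons, 1195 per kb of the longest transcript, 1274 per kb of the longest protein-coding transcript and 4078 mean normalized counts with no length. The order of the members kept 8 of 10 places with either other length, Id1 and Tfrc changing places, and 5 of 10 with no length. The number of members in the top 5% stayed at 5 among protein-coding genes and with a minimum mean normalized count of 50, and was 6 with the longest protein-coding transcript. The share of genes below each member was set against its 95% binomial interval, which reflects the number of listed genes alone and no spread between mice. Among protein-coding genes, no member left its interval. With that minimum 7 of 10 members did, and with that transcript 6 of 10, by up to -11.3 and -11.9 percentage points. The minimum takes out genes of low count, and with it the share fell for every member. With that minimum and with that transcript, Hfe passed from above to below the median, so 8 members lay above it in place of 9. That minimum left 53 of the 56 listed genes of the 7 lists. The number of members with an IRE stayed at 4 with no lower stem pairs or 4 of 5 required, and was 2 with all 5. The share of all listed genes with an annotated UTR did move. It was 1.03% with no lower stem pairs, 0.132% with 4 of 5 and 0.0264% with all 5, against 0.317% in the main search. Adding ferritin pseudogenes gave no value, since none was listed. No paired analysis was possible because the value of each gene is pooled over the mice. With no values for single mice, no library could be left out.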

Other observations

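Outside the members, 4 listed genes held the IRE letters and stem in the 5′ UTR, named here after they were seen: Alas2, Atrx, Ppp1r1b and Wdfy1. Alas2, the erythroid form of the first enzyme of heme synthesis, stood at 31.7 mean normalized counts per kb of merged exons, while its liver counterpart Alas1, at 2396 per kb, held none. With all 5 lower stem pairs required, 3 listed genes remained, of which Slc40a1 and Tfrc are members.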
